A study of Ovis aries with 9 samples.

Results

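Liver libraries of Tan sheep, a breed of northwest China kept for meat and pelts, were compared between animals fed 1% succinate and animals on the basal diet. The 1% group received the basal diet with 1% succinate and the control group the basal diet alone, and a further group received 2% succinate. Per the labels, the trial used 30 male sheep 5 months old, with 5 stalls in each group and 2 sheep in each stall, and ran for 60 days after a pretrial period of 10 days. The libraries were chosen by their treatment label, which gave 3 libraries at 1% and 3 controls, 6 of the 9 in the series. The 3 libraries at 2% entered the estimate of the spread and are set beside the results at the end. Since no label ties a library to its own animal or stall, p-values cover the spread between libraries only, part of which may be technical.

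Succinate is an intermediate of the tricarboxylic acid cycle, where succinate dehydrogenase, which is also complex II of the respiratory chain, oxidises it to fumarate. In ruminants the rumen microbes ferment feed to propionate, and the liver carries propionate through succinyl-CoA and succinate into the synthesis of glucose. Mitochondrial and plasma membrane carriers move succinate and other dicarboxylates, and outside the cell succinate can signal through the receptor SUCNR1.

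The libraries held 13931688 to 18172528 reads, as recovered from the steps of the deposited values, with 15911 to 16441 genes above 0. Hepatocyte markers had a median of 641 to 786 FPKM (fragments per kilobase, scaled to the size of the library) at 1% and 612 to 808 FPKM in controls. Skeletal muscle markers summed to 0.0889 to 0.605 FPKM at 1% and 0.643 to 0.907 FPKM in controls, with ACTA1 at 0 in 4 of the 6 libraries and at most 0.185 FPKM, in a series whose title is about muscle and whose tissue label is liver. The labels of 1% library 3 contradict each other, since its treatment label gives 1% and its title 2%. It also stood furthest from the other libraries on the first principal component, and it was the lowest of the 6 libraries in 32.0% of the tested genes. Control 1 was the highest of the 6 in 42.7% of them and had the largest median-ratio size factor, at 1.20 against 0.912 to 1.01 in the other 5. Many of the gene lists whose median moves by more than 1.5 times without 1% library 3 are therefore given with and without it. A list given only with that library need not be stable. The share of all genes is set beside most counts.

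Almost no single gene separated 1% succinate from control beyond the spread between libraries. Of 11944 genes tested, 2 passed an adjusted p of 0.05 (0.0167%), both lower at 1%: USP2, a deubiquitinating protease that cycles with the clock in the liver of rodents, and SMIM10, a small integral membrane protein. An unadjusted p under 0.05 was reached by 252 genes that were higher at 1% (2.11%) and 1526 that were lower (12.8%). The libraries of the groups did not overlap in 272 genes that were higher at 1% (2.28%) and in 1868 that were lower (15.6%). The median log2 change over all tested genes was -0.14, and 68.6% of all tested genes stood below control. It was -0.01 after median-ratio scaling and 0.01 after quantile scaling, and the counts at an unadjusted p under 0.05 then became 873 higher and 771 lower, or 832 higher and 702 lower. All changes below are differences of log2(FPKM + 1), which understate the change of genes at low FPKM. Without 1% library 3 no gene passed, the same genes gave 97 with an unadjusted p under 0.05 on the higher side (0.812%) and 750 on the lower side (6.28%), and the median was -0.12. Of the 252 genes higher, 71 were also so without that library, and of the 1526 lower, 686.

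**Figure D1:**
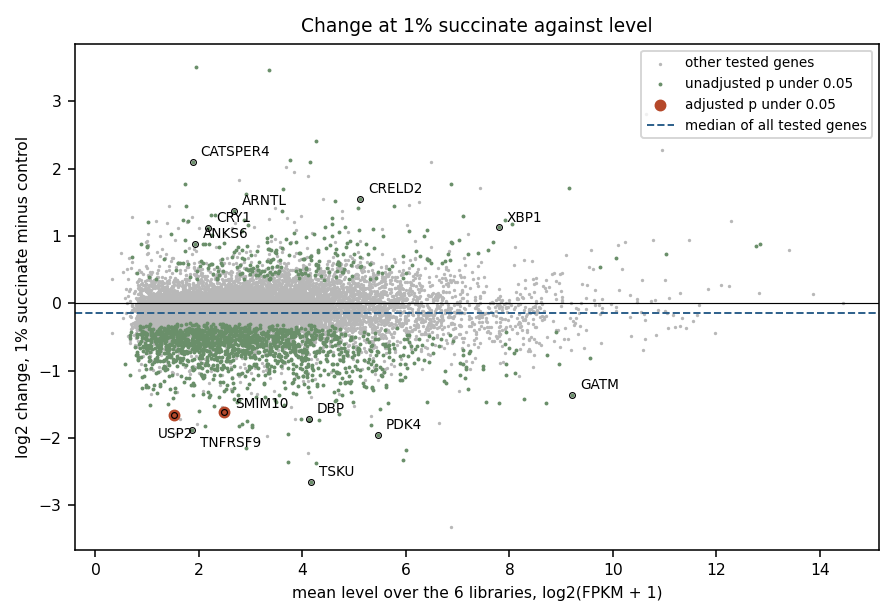
Each point is 1 of the 11944 tested genes, with its mean log2(FPKM + 1) over the 6 libraries on the horizontal axis and the log2 change of 1% succinate minus control on the vertical axis. USP2 and SMIM10 passed the adjusted threshold, ringed genes are named in the text, and the dashed line at -0.14 is the median of all tested genes.

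USP2 had 0.585, 0.373 and 0.912 FPKM at 1% succinate, against 4.66, 3.39 and 4.21 FPKM in controls. Every 1% library lay under 1 FPKM and every control above 3 FPKM. The 2% libraries also lay under 1 FPKM, at 0.469, 0.236 and 0.433 FPKM. USP2 thus met the level needed for testing, an FPKM of 1 in 3 or more libraries, only through the controls, where it was high. The log2 level of USP2 fell by 1.65 (adjusted p = 0.022, SE 0.17, limma), to 0.623 ± 0.272 FPKM at 1% against 4.09 ± 0.644 FPKM in controls (SD, n = 3 each). SMIM10 had 2.83, 2.33 and 1.54 FPKM at 1% succinate, against 7.72, 8.86 and 9.85 FPKM in controls, again without overlap, and fell by 1.61 (SE 0.17, adjusted p = 0.022). Without 1% library 3 both calls were lost, at an adjusted p of 0.0561, while the changes were -1.78 for USP2 and -1.45 for SMIM10. Leaving out 1 control, or 1% library 2, also ended both calls, and leaving out 1% library 1 ended that of USP2 (adjusted p = 0.0517) but not that of SMIM10 (adjusted p = 0.0199). With 0.1 in place of 1 added to the FPKM the change of USP2 was -2.59, and with voom on the recovered reads it was -2.78.

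The core circadian clock of mammals is a loop in which the activators ARNTL (also BMAL1) and CLOCK drive the PER and CRY repressors, which then block them. The nuclear receptors NR1D1 and NR1D2 repress ARNTL, and the PAR bZIP factors DBP, TEF and HLF carry the rhythm to metabolic genes. At 1% succinate the genes of this loop differed from control in opposite directions: ARNTL, CLOCK and CRY1 stood higher, and PER3, CIART, NR1D1, NR1D2, DBP, HLF and TEF lower, in every library. Apart from USP2, which is on the output list, none of these genes passed the adjusted threshold. The hour of sampling is not given in the sources used here, and its part in these values was not tested.

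Among the 5 activators tested, 2 were higher at an unadjusted p under 0.05 (40% against 2.11% of all genes). The median change of the 5 was 0.40. With a filter at a mean FPKM of 5, which left 3 of them, the median was -0.19. ARNTL had 12.8, 7.33 and 8.41 FPKM at 1% succinate, against 3.02, 3.78 and 2.26 FPKM in controls. Its log2 change was 1.37 (SE 0.21, adjusted p = 0.089), and 1.43 without 1% library 3. CLOCK, its partner, had 3.32, 2.89 and 3.07 FPKM at 1% succinate, against 2.13, 2.29 and 1.92 FPKM in controls, a narrow gap without overlap (log2 change 0.40, adjusted p = 0.277). NPAS2, which can replace CLOCK, ranged from 1.84 to 3.42 FPKM at 1% and 0.724 to 2.23 FPKM in controls, and the receptor RORA, which activates ARNTL, overlapped as well.

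Of the 11 repressors tested, 5 were lower (45.5% against 12.8% of all genes) and 1 higher (9.09% against 2.11%) at an unadjusted p under 0.05. Without 1% library 3 the counts were again 5 and 1. The median was -0.54 in all 6 libraries and -0.75 without that library. PER3, a period protein, had 3.54, 3.16 and 1.56 FPKM at 1% succinate, against 13.8, 7.59 and 15.6 FPKM in controls (log2 change -1.81, adjusted p = 0.119). CIART, a repressor of the ARNTL and CLOCK pair, had 0.239, 0.958 and 0.580 FPKM at 1% succinate, against 3.09, 2.80 and 1.98 FPKM in controls (log2 change -1.20, adjusted p = 0.133). Like USP2, CIART met the level needed for testing only through the controls, so its place among the 5 lower repressors is no support for the list. NR1D2 had 6.51, 8.09 and 7.15 FPKM at 1% succinate, against 20.6, 14.9 and 20.8 FPKM in controls (log2 change -1.25, adjusted p = 0.133). These 3 genes kept all 1% libraries below all controls. NR1D1, the better known of the REV-ERB receptors, had 5.44, 6.88 and 3.24 FPKM at 1% succinate, against 11.4, 13.9 and 20.4 FPKM in controls (log2 change -1.40). BHLHE40, a repressor that also answers to hypoxia, had 31.5, 34.2 and 49.3 FPKM at 1% succinate, against 61.9, 67.4 and 69 FPKM in controls (log2 change -0.80). CRY1 went the other way from its list, with 7.75, 4.38 and 5.28 FPKM at 1% succinate, against 2.51, 2.22 and 1.57 FPKM in controls (log2 change 1.11, adjusted p = 0.181). PER1, PER2, CRY2 and CSNK1D overlapped between the groups, with log2 changes of -0.48, -0.23, -0.54 and 0.10.

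The output list held 8 tested genes, of which 5 were lower at an unadjusted p under 0.05 (62.5% against 12.8% of all genes) and 0 higher. USP2 is among the 5 but was tested only through its controls, so its fall is no support for the list. Without 1% library 3 the count lower was 6, and the median change was -0.83 with that library and -0.85 without it. DBP had 11.3, 10.03 and 5.54 FPKM at 1% succinate, against 23.8, 29.1 and 41.3 FPKM in controls, with every 1% library below every control (log2 change -1.72, adjusted p = 0.089). HLF had 5.88, 6.90 and 5.75 FPKM at 1% succinate, against 14.6, 11 and 15.8 FPKM in controls (log2 change -1.03) and TEF had 7.85, 6.10 and 2.87 FPKM at 1% succinate, against 9.27, 9.79 and 14.3 FPKM in controls (log2 change -0.93). KLF9, a zinc finger factor that follows glucocorticoids and the clock, had 14.5, 12.1 and 17.8 FPKM at 1% succinate, against 28.5, 21.6 and 24.9 FPKM in controls (log2 change -0.73). NFIL3, a repressor that competes with DBP, and NOCT, a clock-controlled phosphatase, overlapped between the groups, with log2 changes of 0.02 and 0.16. KLF10 also overlapped, at -0.57.

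**Figure D2:**
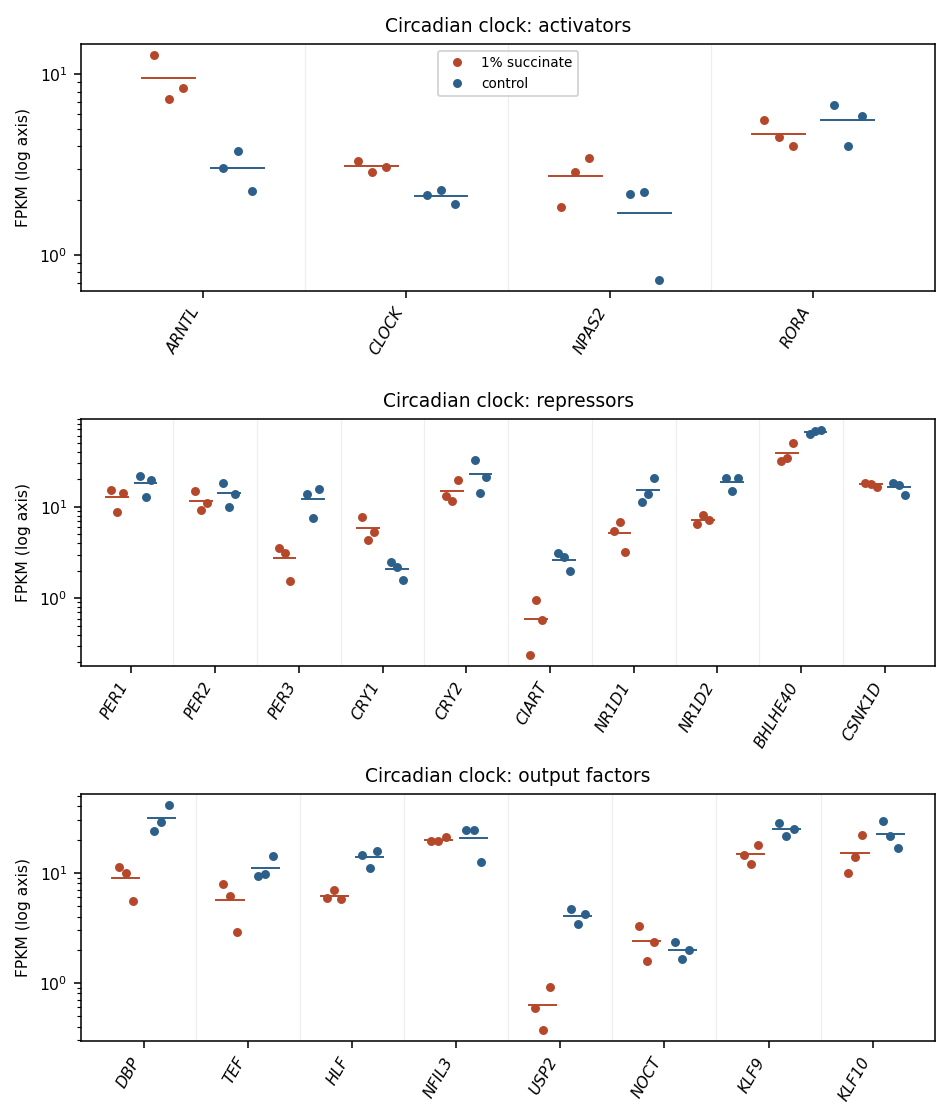
FPKM on a log axis for tested clock genes, with 1 point per library, 1% succinate left of control, and a bar at the group mean. ARNTL and CRY1 sit above control in every 1% library, and PER3, CIART, NR1D1, NR1D2, DBP, HLF, TEF and USP2 sit below it.

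Outside the clock, the genes with the smallest p that were lower at 1% came from several functions. They were chosen among genes with a symbol whose groups did not overlap, so their lack of overlap is no further result. TSKU, a small leucine-rich protein that mouse hepatocytes secrete, had 10.2, 5.66 and 3.95 FPKM at 1% succinate, against 41.4, 35 and 59.1 FPKM in controls, with a log2 change of -2.65 (SE 0.40, adjusted p = 0.089). TNFRSF9 (also 4-1BB), a costimulatory receptor of activated T and NK cells, had 1.28, 1.26 and 0.327 FPKM at 1% succinate, against 5.39, 7.45 and 5.32 FPKM in controls (log2 change -1.88, adjusted p = 0.0858). IDO1, which opens the kynurenine route of tryptophan breakdown and is induced by interferon gamma, had 1.14, 1.32 and 1.49 FPKM at 1% succinate, against 5.72, 5.81 and 6.54 FPKM in controls (log2 change -1.60, adjusted p = 0.089). The IDO1 values varied little within either group. PAOX, a peroxisomal oxidase of acetylated polyamines, had 7.66, 9.78 and 6.45 FPKM at 1% succinate, against 24.2, 17.7 and 22.8 FPKM in controls (log2 change -1.34, adjusted p = 0.089). P4HA3, a collagen prolyl hydroxylase subunit that turns 2-oxoglutarate into succinate, had 2.01, 2.22 and 2.17 FPKM at 1% succinate, against 4.61, 6.29 and 4.99 FPKM in controls (log2 change -0.999, adjusted p = 0.089). LRRC19, a leucine-rich repeat membrane protein, GRIK4, a kainate receptor subunit, and ASB9, a SOCS-box protein, were lower in every 1% library at low levels. Their 1% libraries ranged from 0.0803 to 0.623 FPKM and their controls from 1.33 to 3.12 FPKM, with log2 changes of -1.25, -1.21 and -1.52.

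The genes with the smallest p that were higher at 1% included a carrier of succinate. These too were chosen among genes with a symbol and no overlap between the groups. ANKS6, a protein of the ciliary inversin compartment, had 3.98, 4.27 and 4.28 FPKM at 1% succinate, against 1.91, 1.96 and 1.59 FPKM in controls, with little spread within either group (log2 change 0.88, adjusted p = 0.089). GPHN, a molybdenum cofactor enzyme and synaptic scaffold, had 24.8, 23.8 and 25.2 FPKM at 1% succinate, against 15.1, 14 and 13.1 FPKM in controls (log2 change 0.77, adjusted p = 0.133). SLC13A3, a sodium-coupled carrier of the plasma membrane that takes up succinate and other dicarboxylates, had 11, 10.5 and 6.61 FPKM at 1% succinate, against 4.99, 3.55 and 5.58 FPKM in controls (log2 change 0.85, adjusted p = 0.249). Its gap was narrow, since 1% library 3 lay close to control 3, and the change was 1.06 without 1% library 3. PID1, a phosphotyrosine-domain protein tied to insulin signalling, had 38.1, 47.7 and 63.7 FPKM at 1% succinate, against 22.4, 31.5 and 16.1 FPKM in controls (log2 change 1.08). CATSPER4, a subunit of the sperm calcium channel, had 11.8, 3.14 and 7.34 FPKM at 1% succinate, against 0.258, 0.983 and 1.26 FPKM in controls, a wide spread at 1% (log2 change 2.10). DOK5, TBC1D30, EDIL3, MPHOSPH6 and TUBA4A, an adaptor, a GTPase-activating protein, a matrix protein, an exosome-associated protein and a tubulin, had log2 changes of 1.30, 0.94, 1.24, 0.79 and 0.80.

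Genes of the secretory pathway stood above control at 1%, against the shift of all genes. Secreted and membrane proteins enter the endoplasmic reticulum through the translocon, are folded by chaperones and glycosylated there, and leave in coated vesicles, while the unfolded protein response adjusts this machinery to its load. Of the 21 ER chaperones and disulfide isomerases, 19 were above control, against 31.4% of all genes, and 7 were higher at an unadjusted p under 0.05 (33.3% against 2.11%), and the list's median stood at 0.42, which is 0.56 above that of all genes. None passed the adjusted threshold, and none of the 21 was free of overlap between the groups. Without 1% library 3 the number at an unadjusted p under 0.05 was 0 higher and 1 lower, and the median was 0.27. That library was the highest of the 6 in 16 of the 21 genes, against 15.5% of all tested genes. The direction was not confined to the secretory pathway. Of 17 cytosolic heat shock proteins 12 were above control, and of 18 cytosolic aminoacyl-tRNA synthetases 14 were. Their medians were 0.15 and 0.13, and 0.04 and 0.06 without 1% library 3. In both lists 0 genes were higher at an unadjusted p under 0.05, and 1 heat shock gene was lower (5.88% against 12.8% of all genes).

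HSPA5 (also BiP), the main ATP-driven chaperone of the ER, had 229.8, 393 and 694 FPKM at 1% succinate, against 365, 154 and 94.3 FPKM in controls. The order ran from 1% library 3 at the top to control 3 at the bottom, with control 1 above 1% library 1 (log2 change 1.18, SE 0.52, adjusted p = 0.334). MANF, a secreted stress protein that binds HSPA5, had 58.9, 76.8 and 154 FPKM at 1% succinate, against 71.5, 28.1 and 16.2 FPKM in controls, in which control 1 again lay above 1% library 1 (log2 change 1.44). HYOU1, a nucleotide exchange factor of HSPA5, had 28.4, 48.9 and 112 FPKM at 1% succinate, against 41.2, 16.8 and 10.5 FPKM in controls (log2 change 1.42). CRELD2, a disulfide isomerase, had 34.8, 47.6 and 119.7 FPKM at 1% succinate, against 51.9, 16.3 and 8.26 FPKM in controls, the largest change of the list at 1.54, and 1.03 without 1% library 3. HSP90B1, the HSP90 of the ER, and the co-chaperones DNAJB9 and DNAJB11 likewise had 1% library 3 highest, control 3 lowest and control 1 above 1% library 1, with log2 changes of 0.91, 1.08 and 1.14. The lectin chaperone CALR and the isomerases PDIA3, PDIA4, PDIA6 and P4HB overlapped more, with log2 changes of 0.63, 0.29, 0.39, 0.32 and 0.29. CANX, also a lectin chaperone, overlapped as HSPA5 did, with control 1 above 1% library 1 (log2 change 0.41). The remaining members were DNAJC3 at 0.53, the oxidases ERO1A at 0.39 and ERO1B at -0.29, SDF2L1 at 0.38, FKBP2 at -0.51, TXNDC5 at 0.42, TXNDC11 at 0.41 and SELENOK at 0.49. ERO1B and FKBP2 were thus the members below control.

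The 14 factors of the unfolded protein response had a median of 0.10, and of -0.06 without 1% library 3, so its sign is not settled. Of these factors, 1 was higher at an unadjusted p under 0.05 (7.14% against 2.11% of all genes). This was XBP1, the transcription factor spliced by the sensor ERN1, with 249.9, 331 and 426 FPKM at 1% succinate, against 212, 160.0 and 99 FPKM in controls (log2 change 1.12, adjusted p = 0.255). Its groups did not overlap, and the change was 0.94 without 1% library 3. CREB3L3, a liver factor of the ER membrane that is cleaved on stress or fasting, had 200.0, 373 and 169 FPKM at 1% succinate, against 388, 404 and 333 FPKM in controls (log2 change -0.68). The stress kinase EIF2AK3 and its effector ATF4 had log2 changes of 0.41 and 0.57, the sensors ATF6 and ERN1 0.41 and 0.26, and all overlapped between the groups. The targets of the ATF4 arm overlapped too, with log2 changes of 0.23 for DDIT3 (also CHOP), 0.10 for ATF3, -0.19 for TRIB3, -0.02 for ASNS, -0.07 for PPP1R15A and 0.10 for PPP1R15B. ATF6B was at -0.03 and CREBRF at -0.26.

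The lists for the steps before and after folding had medians of the same sign. Of 20 genes of the translocon and signal peptidase, 17 were above control, beside 31.4% of all genes. At an unadjusted p under 0.05, 4 were higher (20% against 2.11% of all genes) and 1 was lower (5% against 12.8%). The median of the list was 0.43, and 0.28 without 1% library 3. SEC63, a translocon partner of HSPA5, had 36.6, 49.96 and 57.8 FPKM at 1% succinate, against 35.4, 31.8 and 27.4 FPKM in controls (log2 change 0.58). Of 26 subunits and adaptors of COPII and COPI coats, 24 were above control and 4 were higher at an unadjusted p under 0.05 (15.4% against 2.11% of all genes). In 7 the groups did not overlap, all higher at 1%, a pattern found in 2.28% of all genes. The median of the coats was 0.32, and 0.185 without 1% library 3. MCFD2, a cargo adaptor for coagulation factors, had 114, 136 and 134 FPKM at 1% succinate, against 103, 77.2 and 73.7 FPKM in controls (log2 change 0.60), and SEC23B, of the inner COPII coat, had 27.6, 26.5 and 62.4 FPKM at 1% succinate, against 25.3, 11.7 and 9.84 FPKM in controls (log2 change 1.26). Of 13 genes of ER-associated degradation, ERLEC1 and EDEM1 were higher at an unadjusted p under 0.05 (log2 changes 0.80 and 0.58), and of 9 oligosaccharyltransferase subunits DDOST was (log2 change 0.64). The shares were 15.4% and 11.1%, against 2.11% of all genes. The degradation list had a median of 0.30, and 0.11 without 1% library 3. In the oligosaccharyltransferase list the 1 member without overlap was lower at 1%, a pattern found in 15.6% of all genes. Without 1% library 3 the number higher at an unadjusted p under 0.05 was 0 for the translocon, degradation and oligosaccharyltransferase lists and 1 for the coats. Of 31 proteasome subunits, 25 were above control and 3 were higher at an unadjusted p under 0.05 (9.68% against 2.11% of all genes). Their median was 0.16, and without 1% library 3 the number at that threshold was 0 and the median 0.09. Without control 2 that median was 0.07. HSPD1, the mitochondrial HSP60, had 109, 139 and 156 FPKM at 1% succinate, against 85.4, 87.1 and 84.9 FPKM in controls (log2 change 0.63, adjusted p = 0.264), while the 9 mitochondrial chaperones and proteases together had a median of 0.07, and 0.03 without 1% library 3.

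**Figure D3:**
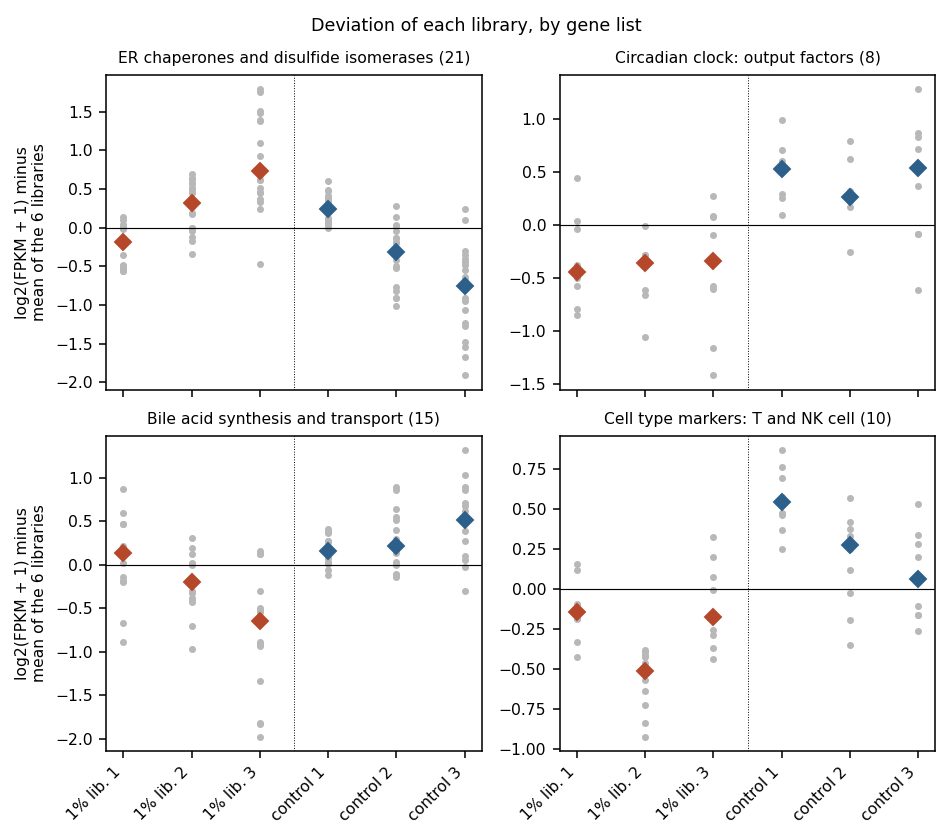
For 4 gene lists, the log2(FPKM + 1) of each tested member minus its mean over the 6 libraries (small points) and the median over the members (diamonds), with the 1% libraries left of the controls. The ER chaperones run from a median of -0.19 in 1% library 1 to 0.73 in 1% library 3, and from 0.24 in control 1 to -0.75 in control 3, whereas the clock outputs separate the groups.

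Secreted liver products did not share a direction. The fibrinogen chains are acute phase products that hepatocytes make in response to interleukin 6. FGA had 5519, 13184 and 11013 FPKM at 1% succinate, against 4843, 7222 and 3962 FPKM in controls (log2 change 0.84), FGG had a log2 change of 0.87 and FGB one of 0.79, and all 3 overlapped because 1% library 1 lay below control 2. The 8 positive acute phase genes had a median of 0.79, with 7 above control and 2 higher at an unadjusted p under 0.05 (25% against 2.11% of all genes). That number was 0 without 1% library 3 and the median 0.59. The median also went to 0.24 without control 3 and 0.49 without 1% library 2. Negative acute phase products and carriers had none of 9 at that threshold in either direction, and their median of -0.33 has no settled sign, since it was 0.03 without 1% library 2, -0.07 without control 3 and -0.10 without 1% library 3. ALB, albumin, had 36439.5, 11749 and 25641 FPKM at 1% succinate, against 18208, 13765 and 43479.6 FPKM in controls, and APOA1, the main apolipoprotein of high-density lipoprotein, had 315, 198 and 222 FPKM at 1% succinate, against 369.6, 251 and 378 FPKM in controls, both with wide overlap. MBL2, a lectin that opens the complement cascade, had 239, 227 and 169 FPKM at 1% succinate, against 313, 357 and 379 FPKM in controls (log2 change -0.73), and the coagulation factor F7 had 59.1, 59.9 and 55.9 FPKM at 1% succinate, against 126, 73.1 and 83 FPKM in controls (log2 change -0.64), both below control in every 1% library. The complement list as a whole had a median of -0.14, next to that of all genes and turning positive with median-ratio scaling, and was -0.05 without 1% library 3. The coagulation list had a median of -0.32, with 3 of 18 lower at an unadjusted p under 0.05 (16.7% against 12.8% of all genes). Its median without 1% library 3 was -0.13, at that of all genes, and 1 was lower.

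Several genes of antigen presentation and of T and NK cells had lower values at 1%. Of 14 genes of antigen presentation and the immunoproteasome, 13 were below control, beside 68.6% of all genes, and 4 were lower at an unadjusted p under 0.05 (28.6% against 12.8%), with a median of -0.43. The list did not separate the groups, since the median over its members of the log2 deviation from the mean of the 6 libraries was -0.18 in control 3, within the -0.32 to -0.06 of the 1% libraries. Leaving out 1% library 3 left 2 of the 14 lower at that threshold. PSMB9, an immunoproteasome subunit, had 10.6, 5.18 and 8.11 FPKM at 1% succinate, against 20.9, 15.3 and 11.8 FPKM in controls (log2 change -0.94, adjusted p = 0.261). TAP2, of the peptide transporter, and PSMB8 overlapped, since control 3 lay close to the 1% libraries, and had log2 changes of -0.64 and -0.62. The interferon regulatory factor IRF1 had 10.2, 8.53 and 7.97 FPKM at 1% succinate, against 17.6, 19.1 and 10.8 FPKM in controls, and IRF8, a factor of myeloid cells, had 7.76, 6.84 and 6.05 FPKM at 1% succinate, against 13.6, 11.5 and 8.55 FPKM in controls, both without overlap, while the 19 interferon-stimulated genes had a median of -0.16, next to that of all genes and turning positive with quantile scaling, with 2 lower at an unadjusted p under 0.05 (10.5% against 12.8% of all genes). That median lay between -0.45 and 0.26 when each library was left out in turn. CXCL10, a chemokine induced by interferon, overlapped between the groups (log2 change -1.03). Of 11 TNF, NF-kB and chemokine genes, 10 were below control and 3 lower at an unadjusted p under 0.05 (27.3% against 12.8% of all genes), with a median of -0.46, and -0.30 without 1% library 3. The 3 were TNFRSF9, the T cell chemokine CCL5, with 7.30, 4.96 and 6.20 FPKM at 1% succinate, against 12.6, 10.7 and 10.3 FPKM in controls, and the NF-kB subunit NFKB2, with 5.87, 5.24 and 4.51 FPKM at 1% succinate, against 11.2, 9.01 and 6.53 FPKM in controls.

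The summed level of the 12 T and NK cell markers in the table was 37.3, 24.5 and 37.0 FPKM at 1%, against 66.5, 48.2 and 46.2 FPKM in controls. The sums did not overlap, and all 10 tested markers were below control, beside 68.6% of all genes. At an unadjusted p under 0.05, 5 of them were lower (50% against 12.8% of all genes), and 4 without 1% library 3. No marker was at 0 in any of the 6 libraries. CCL5 is on this list as well as the chemokine list. In bulk liver, fewer cells of a type and less RNA per cell cannot be told apart, and the part of these cells in the lower immune genes was not tested. Kupffer cell and macrophage markers summed to 401, 467 and 365 FPKM at 1% and 432, 706 and 347 FPKM in controls, and neutrophil markers to 4.98, 8.78 and 5.62 FPKM at 1% and 21.6, 7.45 and 2.42 FPKM in controls, both with overlap. All 8 tested Kupffer cell and macrophage markers were also below control in their means. At an unadjusted p under 0.05, 1 of them was lower (12.5% against 12.8% of all genes), and 0 without 1% library 3. Their median was -0.21, beside -0.61 for the T and NK cell markers and -0.14 for all genes. The difference between the marker lists was not tested.

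No enzyme or carrier that handles succinate itself passed the adjusted threshold. SDHA, the catalytic subunit of succinate dehydrogenase, had 130.4, 112 and 111 FPKM at 1% succinate, against 151, 122 and 179 FPKM in controls (log2 change -0.34, adjusted p = 0.425), and SDHB, its iron-sulfur subunit, had 13.5, 8.88 and 9.48 FPKM at 1% succinate, against 10.4, 10.8 and 13.3 FPKM in controls (log2 change -0.12). SDHC and SDHD, the membrane anchors, had log2 changes of -0.23 and -0.24, and the 8 subunits and assembly factors had a median of -0.16 with 0 at an unadjusted p under 0.05, and a median of -0.06 without 1% library 3. SLC25A10, the mitochondrial dicarboxylate carrier that exchanges succinate or malate for phosphate, had 29.2, 28.2 and 15.7 FPKM at 1% succinate, against 41.6, 38.4 and 51.9 FPKM in controls, below control in every 1% library and lowest in 1% library 3 (log2 change -0.86, adjusted p = 0.261). The citrate carrier SLC13A5 ranged from 8.75 to 163 FPKM in controls alone, and its log2 change of 1.16 lay within that spread. SUCNR1 fell short of the level needed for testing, with 0.773, 0.638 and 0.449 FPKM at 1% succinate, against 0.353, 1.98 and 1.01 FPKM in controls.

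Among 17 genes on the tricarboxylic acid cycle list the median was -0.08, which turned positive with either scaling and was -0.01 without 1% library 3. At an unadjusted p under 0.05 there was 1 lower gene (5.88% against 12.8% of all genes) and none higher. That gene was IDH1, the cytosolic NADP-dependent isocitrate dehydrogenase, with 54, 49.99 and 21.6 FPKM at 1% succinate, against 68.5, 82 and 116 FPKM in controls (log2 change -1.14, adjusted p = 0.278), and its change was -0.73 without 1% library 3. As a cytosolic enzyme IDH1 is not a step of the mitochondrial cycle, and no other member of the list reached that threshold. CS, citrate synthase, and FH, fumarase, overlapped, with log2 changes of 0.50 and -0.60. The 9 genes of propionate to succinyl-CoA had a median of -0.19 and 0 at an unadjusted p under 0.05, with 6 of them lowest in 1% library 3. MCEE, methylmalonyl-CoA epimerase, had 81.3, 66.1 and 39 FPKM at 1% succinate, against 73.4, 96.1 and 91.1 FPKM in controls (log2 change -0.53). The respiratory chain was near the shift of all genes, with medians of -0.22 over 36 nuclear subunits of complex I and -0.21 over 17 of complexes III to V. At an unadjusted p under 0.05, 1 and 0 of them were lower (2.78% and 0%, against 12.8% of all genes). Leaving out 1% library 3 gave medians of -0.10 and -0.10. Cytosolic ribosomal proteins, 58 in all, had a median of -0.09, which turned positive with either scaling and was -0.05 without 1% library 3.

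Several genes that switch liver fuel use in fasting had lower values at 1%. Of 12 genes of ketone bodies and the fasting response, 11 were below control, beside 68.6% of all genes, and 6 lower at an unadjusted p under 0.05 (50.0% against 12.8% of all genes), with a median of -0.68. Without 1% library 3, 2 were lower at that threshold and the median was -0.40. PDK4, the kinase that shuts pyruvate dehydrogenase and spares glucose, had 28.1, 24.5 and 14 FPKM at 1% succinate, against 98.6, 76 and 83 FPKM in controls, far apart without overlap (log2 change -1.95, adjusted p = 0.136). PDK4 is not on the fasting list but on that of glycolysis and pyruvate use. FGF21, a fasting hormone of the liver, had 9.75, 4.74 and 20.6 FPKM at 1% succinate, against 53.2, 29.6 and 28.6 FPKM in controls (log2 change -1.74, adjusted p = 0.226). PLIN5, a lipid droplet protein that links droplets to mitochondria, had 24.3, 16.5 and 6.70 FPKM at 1% succinate, against 31.8, 34.2 and 58.9 FPKM in controls (log2 change -1.45), while PLIN2, the main droplet coat of hepatocytes, overlapped between the groups at -1.32. PPARGC1A, the coactivator of gluconeogenesis and mitochondrial biogenesis, had 3.05, 1.68 and 0.673 FPKM at 1% succinate, against 4.94, 4.53 and 3.35 FPKM in controls (log2 change -0.99, adjusted p = 0.261). PPARGC1A is on the lists of gluconeogenesis and mitochondrial biogenesis, not on the fasting list.

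Of 14 genes of gluconeogenesis, 12 were below control, 3 lower (21.4% against 12.8% of all genes) and 1 higher (7.14% against 2.11%) at an unadjusted p under 0.05. Their median was -0.34, and without 1% library 3 it was -0.18, with 1 lower. The higher one was GOT1, cytosolic aspartate aminotransferase, with 108, 102 and 137 FPKM at 1% succinate, against 47.7, 44 and 88.7 FPKM in controls (log2 change 0.99, adjusted p = 0.275). FBP2, the muscle-type bisphosphatase, ranged from 0.0502 to 3.48 FPKM at 1% and from 1.97 to 6.91 FPKM in controls. Of 26 genes of glycolysis and pyruvate use, 4 were lower at an unadjusted p under 0.05 (15.4% against 12.8% of all genes), PDK4 among them. At that threshold 1 was higher (3.85% against 2.11%), and without 1% library 3 the numbers were 2 and 0. PKLR, the liver pyruvate kinase, had 22.4, 17.1 and 8.21 FPKM at 1% succinate, against 32.3, 32 and 30.3 FPKM in controls, and PFKM, a phosphofructokinase subunit, had 3.72, 3.42 and 1.41 FPKM at 1% succinate, against 5.60, 6.51 and 5.94 FPKM in controls, with log2 changes of -1.05 and -0.92 and 1% library 3 lowest in both. PHKA2, a regulatory subunit of liver phosphorylase kinase, and GBE1, the glycogen branching enzyme, were lower in every 1% library, with log2 changes of -0.97 and -0.47. They were the 2 of 11 glycogen genes lower at an unadjusted p under 0.05 (18.2% against 12.8% of all genes). Without 1% library 3 that number was 1.

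In fatty acid oxidation 24 of 27 genes were below control, beside 68.6% of all genes, and 5 were lower at an unadjusted p under 0.05 (18.5% against 12.8%), with a median of -0.39. Of the 27, 14 were lowest in 1% library 3, and without that library 3 were lower at this threshold and the median was -0.25. CPT1B, a carnitine palmitoyltransferase of the outer mitochondrial membrane, had 3.86, 2.50 and 2.42 FPKM at 1% succinate, against 6.50, 7.93 and 5.51 FPKM in controls (log2 change -0.97, adjusted p = 0.217). SLC22A5, the carnitine transporter, had 10.4, 9.66 and 5.98 FPKM at 1% succinate, against 15.9, 22.5 and 14.7 FPKM in controls (log2 change -0.96). FABP1, the abundant fatty acid binding protein of the liver, had 573, 147 and 184 FPKM at 1% succinate, against 584, 566 and 1014 FPKM in controls, where 1% library 1 lay among the controls (log2 change -1.48). In fatty acid and triglyceride synthesis 5 of 23 were lower at an unadjusted p under 0.05 (21.7% against 12.8% of all genes), and 2 without 1% library 3. SREBF1, the transcription factor of lipogenesis, had 8.85, 8.15 and 6.50 FPKM at 1% succinate, against 12.2, 13.2 and 11.4 FPKM in controls (log2 change -0.59, adjusted p = 0.233). SCD5, a desaturase, did not overlap (log2 change -0.67), and DGAT2, which completes triglycerides, did (log2 change -1.08).

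The cholesterol list of 22 genes had 2 higher at an unadjusted p under 0.05 (9.09% against 2.11% of all genes), and 1 without 1% library 3. Its median was 0.07, but lay between -0.31 and 0.35 when each of the 6 libraries was left out in turn, so it has no settled sign. STARD4, a sterol carrier, had 20.4, 14.7 and 23.5 FPKM at 1% succinate, against 11.5, 9.31 and 15.4 FPKM in controls (log2 change 0.65). Bile acid synthesis and transport had 14 of 15 genes below control, beside 68.6% of all genes, and a median of -0.49. In 12 of them 1% library 3 was the lowest, as it was in 32.0% of all tested genes. The 3 genes lower at an unadjusted p under 0.05 (20% against 12.8% of all genes) were ABCG5, BAAT and AMACR. BAAT, which conjugates bile acids with taurine or glycine, had 15.3, 11.9 and 2.74 FPKM at 1% succinate, against 16.7, 25.6 and 26.2 FPKM in controls (log2 change -1.34, and -0.69 without 1% library 3), and without that library 0 of the 15 were lower at this threshold. Cytochrome P450 enzymes and drug receptors had 1 of 13 lower at that threshold (7.69%, under the 12.8% of all genes) and a median of -0.62, and -0.20 without 1% library 3. NR1I3 (also CAR), the drug-sensing receptor of hepatocytes, had 16.8, 10.1 and 3.54 FPKM at 1% succinate, against 23.3, 29.6 and 42.9 FPKM in controls (log2 change -1.73), and FMO5, a monooxygenase, had 165, 78.1 and 11 FPKM at 1% succinate, against 94.9, 232 and 281 FPKM in controls, where 1% library 3 stood far under the rest. Among conjugation enzymes UGT1A6 had 25.9, 13.2 and 17 FPKM at 1% succinate, against 35.7, 38.2 and 52.6 FPKM in controls and the oestrogen sulfotransferase SULT1E1 had 58.9, 56.4 and 37.7 FPKM at 1% succinate, against 75.7, 147 and 249 FPKM in controls, with log2 changes of -1.17 and -1.47 and no overlap. These were the 2 of 15 conjugation enzymes lower at an unadjusted p under 0.05 (13.3% against 12.8% of all genes). Without 1% library 3 that number was again 2, and 1 was higher. UGT1A6 and UGT1A1 come from 1 locus with shared exons, so reads between them are uncertain.

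**Figure D4:**
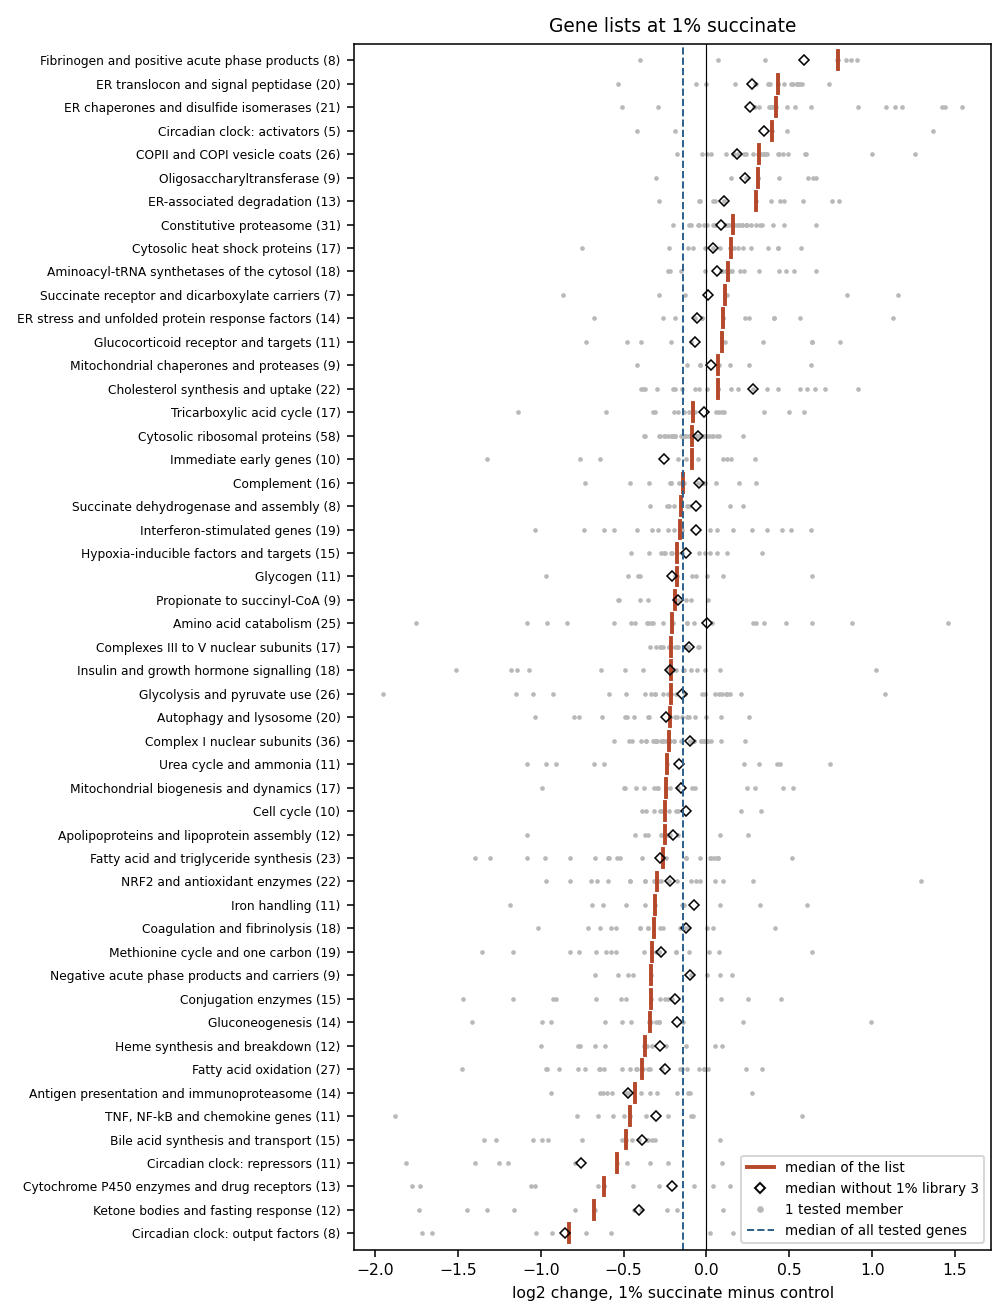
Log2 change of 1% succinate minus control for each tested member (grey points) of 51 gene lists, with the list median (bar), the median without 1% library 3 (open diamond) and the number of tested members in brackets. The clock outputs keep a median of -0.85 without that library, while the ER chaperones go to 0.27 and the cytochrome P450 list to -0.20. The dashed line at -0.14 is the median of all genes.

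Among enzymes of nitrogen and 1-carbon metabolism, single genes stood below control beyond the shift of all genes. GATM, glycine amidinotransferase, makes the creatine precursor guanidinoacetate and had 440.5, 375 and 306 FPKM at 1% succinate, against 1160.4, 888 and 831 FPKM in controls, with every 1% library below every control (log2 change -1.36, SE 0.25, adjusted p = 0.133). It was the member with the smallest p of the methionine and 1-carbon list, in which 4 of 19 were lower (21.1% against 12.8% of all genes) and 1 higher (5.26% against 2.11%) at an unadjusted p under 0.05. These numbers were 4 and 0 without 1% library 3. SARDH, sarcosine dehydrogenase, and CHDH, choline dehydrogenase, were lower in every 1% library, with log2 changes of -0.82 and -0.77. In the urea cycle list 4 of 11 were lower (36.4% against 12.8%) and 1 higher (9.09% against 2.11%) at that threshold, with 5 of the 11 above control and a median of -0.24. The numbers without 1% library 3 were 3 and 1. ASL, argininosuccinate lyase, had 47.5, 21.8 and 28.1 FPKM at 1% succinate, against 48.3, 65.8 and 91.2 FPKM in controls and OTC, ornithine transcarbamylase, had 137, 102 and 74.2 FPKM at 1% succinate, against 140.5, 220.2 and 257 FPKM in controls (log2 changes -1.08 and -0.97). SLC25A15, the ornithine carrier of mitochondria, overlapped between the groups (log2 change -0.91). Of 25 genes of amino acid catabolism 4 were lower (16% against 12.8%) and 3 higher (12% against 2.11%). The numbers were 3 and 1 without 1% library 3, and the median was 0.01, against -0.21 in all 6 libraries. Among the lower were AMT of the glycine cleavage system, BCKDHA of branched-chain breakdown, and PRODH2, which oxidises hydroxyproline. Their log2 changes were -1.08, -0.84 and -0.96, without overlap.

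Of 12 genes of heme synthesis and breakdown, 5 were lower at an unadjusted p under 0.05 (41.7% against 12.8% of all genes) and 0 higher, with 3 lower without 1% library 3. ALAS1, the rate-limiting first enzyme of heme synthesis, joins glycine to succinyl-CoA and had 61.3, 81.6 and 84.5 FPKM at 1% succinate, against 191, 106 and 169.7 FPKM in controls (log2 change -0.999, adjusted p = 0.217). UROS, a later enzyme of the route, and BLVRA, biliverdin reductase, were lower in every 1% library, with log2 changes of -0.68 and -0.76. Among 11 iron genes 3 were lower (27.3% against 12.8% of all genes), with a median of -0.31, and without 1% library 3, 2 were lower and the median was -0.07. The smallest p was that of SMAD7, an inhibitor of the BMP signal to hepcidin, with 5.03, 3.80 and 5.34 FPKM at 1% succinate, against 8.55, 7.92 and 8.07 FPKM in controls (log2 change -0.69). NQO1, a quinone reductase under NRF2, had 4.33, 4.04 and 2.15 FPKM at 1% succinate, against 9.83, 7.88 and 5.61 FPKM in controls and GCLM, of glutathione synthesis, had 18, 11.1 and 8.64 FPKM at 1% succinate, against 23.8, 18.2 and 24.8 FPKM in controls (log2 changes -0.97 and -0.83), within a list of 22 of which 3 were lower at an unadjusted p under 0.05, a share of 13.6% beside 12.8% of all genes. ULK1, the kinase that starts autophagy, had 24.7, 23.4 and 19.5 FPKM at 1% succinate, against 39.5, 36.7 and 43.5 FPKM in controls (log2 change -0.80, adjusted p = 0.181). Of its list of 20, 5 were lower at an unadjusted p under 0.05 (25% against 12.8% of all genes), and 2 without 1% library 3.

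Among 18 insulin and growth hormone genes 5 were lower at an unadjusted p under 0.05 (27.8% against 12.8% of all genes), and 3 without 1% library 3. IGFBP3, the main carrier of insulin-like growth factors in blood, had 120.0, 96.9 and 61.9 FPKM at 1% succinate, against 198, 171 and 201 FPKM in controls (log2 change -1.07, adjusted p = 0.261). SOCS2 and CISH, feedback inhibitors induced by growth hormone through STAT5, overlapped, with 16.5, 2.80 and 5.14 FPKM at 1% succinate, against 15.7, 26 and 20 FPKM in controls for SOCS2 (log2 change -1.51) and a log2 change of -1.14 for CISH. TAT, tyrosine aminotransferase, a classic glucocorticoid target, had 180.3, 123 and 131 FPKM at 1% succinate, against 103, 72.6 and 102 FPKM in controls, above control in every 1% library (log2 change 0.64), while TSC22D3 (also GILZ), another such target, had a log2 change of -0.40. Hypoxia-inducible factors and their targets had 0 of 15 at an unadjusted p under 0.05 and a median of -0.18. MCM5, of the replicative helicase, was lower in every 1% library at a low level (log2 change -0.36), and EGR1, an immediate early gene, had its highest value in control 1, at 32.1 FPKM. MCM5 was the 1 of 10 cell cycle genes lower at an unadjusted p under 0.05 (10% against 12.8% of all genes).

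Changes at 2% share the controls of this comparison and are given side by side with those at 1%. All differences between 1% and 2% include 1% library 3, whose title gives 2%, and they are not given without it. Of 11944 tested genes, 0 passed between 1% and 2% (0%, smallest adjusted p = 0.417, limma). At an unadjusted p under 0.05, 154 were higher at 1% than at 2% and 740 lower. Among the clock genes, ARNTL had a log2 change of 1.37 at 1% and 1.68 at 2%, DBP -1.72 and -1.72, NR1D2 -1.25 and -1.43, and USP2 -1.65 and -1.88, each against control. TSKU had -2.65 at 1% and -2.74 at 2%. SMIM10 stood at 5.88, 5.78 and 5.33 FPKM at 2%, between the other groups, and 1% minus 2% was -1.06 (unadjusted p = 0.000123, adjusted p = 0.423).

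For several metabolic genes the 2% libraries lay closer to control than the 1% libraries did. PDK4 had 110.4, 39.3 and 72.7 FPKM at 2%, a log2 change from control of -0.32, and 1% minus 2% was -1.63 (unadjusted p = 0.00134). GATM had 812, 999 and 1236 FPKM at 2% (log2 change from control 0.08), all above the 1% libraries, with a difference of -1.43 (unadjusted p = 0.0002). FGF21 had 39.5, 40.4 and 43.5 FPKM at 2% (log2 change from control 0.20). SOCS2 had 50.5, 21.4 and 44.2 FPKM at 2%, with a mean on the other side of control (log2 change 0.82, against -1.51 at 1%). The differences between 1% and 2% were -1.94 for FGF21 and -2.33 for SOCS2. SLC13A3 had 3.18, 4.10 and 2.92 FPKM at 2%, below all 1% libraries (difference 1.22, unadjusted p = 0.000262), and TAT also stood above 2%, with a difference of 1.07. ALAS1 was lower still at 2%, at 30.3, 30.1 and 34.4 FPKM at 2%, and 1% minus 2% was 1.23 (unadjusted p = 0.000488). All 8 differences between 1% and 2% given here had an adjusted p of 0.423 or more, and they were named with their values known.

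**Figure D5:**
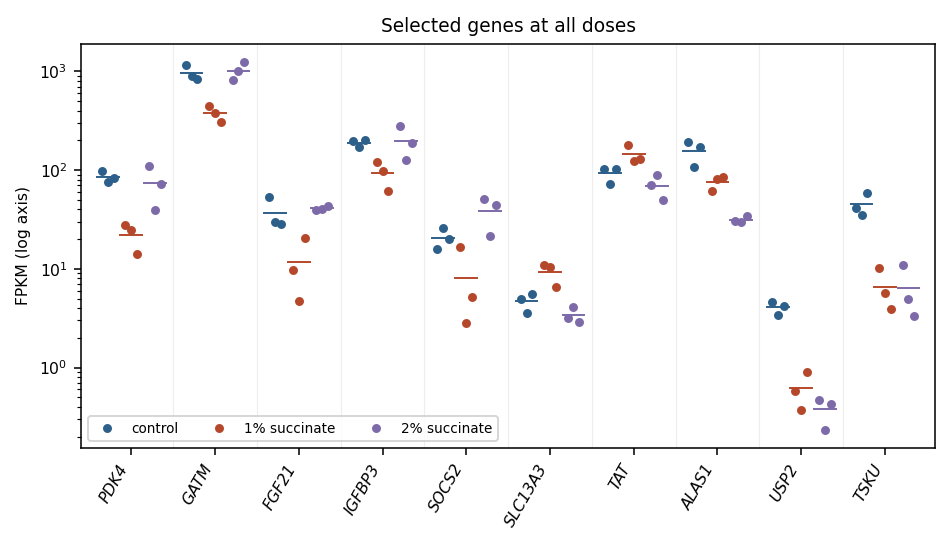
FPKM on a log axis for 10 genes in the control, 1% and 2% libraries, from low to high dose within each gene, with 1 point per library and a bar at the group mean. PDK4, GATM and FGF21 are low at 1% and near control at 2%, ALAS1 is lower at 1% and lowest at 2%, and USP2 and TSKU are low at both.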

How the data were processed

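Total RNA of sheep liver was sequenced in 9 libraries, 3 per group, per the labels. The authors deposited 1 table of 21257 genes with FPKM values, as the file headers name them. How reads were aligned and counted is not given in the sources used here. Gene names are those of sheep, although mouse builds, GRCm38 and mm10, appear in the submitters' processing notes, and no coordinates are printed. Of the names, 20156 matched the RefSeq table of sheep symbols, and 13 mitochondrial locus tags were replaced by symbols.

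Tests were limited to genes that reached an FPKM of 1 in 3 or more libraries. The test was that of limma (3.58.1, R 4.3.3) for log2(FPKM + 1), with 1 mean per group, all 9 libraries in the fit, empirical Bayes moderation and an intensity trend. P-values are two-sided and adjusted by the Benjamini-Hochberg method over all tested genes, with a threshold of 0.05. The fit was also run on simulated counts without a shift of whole libraries, unlike these data, and no result here rests on that run. Groups are called free of overlap where every library of 1 group lies beyond every library of the other. The FPKM of 17402 genes above 0 in at least 2 libraries gave whole reads within 0.01 (100%), and voom on these reads was an alternative, in which 0 genes passed. That step left out 728 genes seen in a single library. Pairs of the 6 libraries differed by a chi-square per degree of freedom of at least 60.7, so none was a copy of another. Tables and plots were made in Python 3.11.15 (numpy 2.4.6, pandas 2.3.3, matplotlib 3.10.9).

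The members, gene lists and tests were chosen with earlier results of these data known. Named genes are those that pass, in each direction the 12 of smallest p that have a symbol and no overlap, the 3 of smallest p in each list with 5 or more tested genes, all clock and ER stress or chaperone genes tested, and SUCNR1, SDHA, SDHB, SLC25A10, SLC13A3, ALB, APOA1 and ACTA1. Some genes selected by this rule are given only within counts, and some are not reported here. No sequences are shown.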

Additional observations from a re-analysis of the deposited data

How the results depend on the processing

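The 2 calls, USP2 and SMIM10, became 0 with a pseudocount of 0.1, no filter, a filter at a mean FPKM of 5, median-ratio or quantile scaling, these groups alone, 1% library 3 placed at 2%, the replicate block and voom, and stayed 2 without the intensity trend. Leaving out 1 library gave 0 to 4 calls, including SLC51B and 2 LOC genes beside SMIM10 without 1% library 1, and IDO1 beside USP2 and SMIM10 without 2% library 3. The cause was not tested. Genes at an unadjusted p under 0.05 that were higher numbered 252, and 873 with median-ratio scaling, 832 with quantile scaling, 69 with 1% library 3 at 2%, and 96 to 712 when 1 library was left out. Those lower numbered 1526, and 826 with the filter at 5, which tests fewer genes, 771 and 702 with the 2 scalings, 497 with 1% library 3 at 2%, and 754 to 2043 when 1 library was left out. The median change of -0.14 became -0.011 and 0.01 with the 2 scalings. Replicate numbers do not pair the libraries (correlations of same-numbered deviations -0.295, 0.278 and -0.268), and the replicate block gave 175 higher and 1352 lower.

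Changes near 0 had no settled sign. With 1% library 3 at 2%, NFIL3 was at -0.012, ATF3 at -0.30, DDIT3 at -0.039, PPP1R15B at -0.085 and ALB at -0.10. With median-ratio and quantile scaling ATF6B was at 0.12 and 0.095, PPP1R15A at 0.077 and 0.056, and ASNS at 0.11 and 0.14. SDHB was at 0.024 with median-ratio scaling, and ALB at -0.46 with quantile scaling and -0.009 with voom. Leaving out 1 library gave CSNK1D -0.029 to 0.18, NFIL3 -0.28 to 0.17, NOCT -0.017 to 0.34, ATF6B -0.17 to 0.12, ATF3 -0.34 to 0.81, DDIT3 -0.039 to 0.48, ERN1 -0.038 to 0.48, TRIB3 -0.41 to 0.14, PPP1R15A -0.30 to 0.19, PPP1R15B -0.085 to 0.37, ASNS -0.27 to 0.18, PDIA6 -0.057 to 0.67 and ALB -0.35 to 0.49. All other alternatives run kept the direction of the 214 named genes. Of the medians of 51 lists, 4 changed sign with median-ratio scaling, 4 with quantile scaling and 9 when 1 library was left out, among them the cholesterol, amino acid catabolism and unfolded protein response lists. In the other settings 7 changed sign, among them that of the clock activators. Leave-out fits of the tested genes of the full fit were added after seeing the data, because USP2 drops under the filter without a control. With 3 libraries per group, only large changes of genes with little spread could pass.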

Other observations

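Some features of the 1% comparison lie outside the groups described above. Of the genes at an unadjusted p under 0.05, 46 of the higher and 188 of the lower had a log2 change beyond 1 in size, and 41 of the higher and 164 of the lower carried only a LOC identifier, with no function given here. The inflammatory cytokine genes TNF and CXCL8 were under the level needed for testing. TNF had 0.455, 0.312 and 0.315 FPKM at 1% succinate, against 1.34, 0.635 and 0.764 FPKM in controls, lower in every 1% library. CXCL8 had 0.111, 0.0442 and 0.223 FPKM at 1% succinate, against 3.28, 0.127 and 0.240 FPKM in controls, with overlap and its highest value in control 1. PPARGC1B, a relative of the coactivator PPARGC1A, was also under that level, with 0.181, 0.305 and 0.258 FPKM at 1% succinate, against 0.508, 0.560 and 0.615 FPKM in controls, again without overlap. ANKRD37, a hypoxia-induced gene, had 0.371, 0.346 and 0.150 FPKM at 1% succinate, against 0.478, 1.14 and 2.31 FPKM in controls, also without overlap. No test was run on these 4 genes.

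Markers of other cell types varied between single libraries. Cholangiocyte markers summed to 21.2, 137 and 125 FPKM at 1% and to 33.8, 45.2 and 11.4 FPKM in controls, and B and plasma cell markers to 37.7, 12.8 and 13 FPKM at 1% and 18.0, 73.9 and 18.8 FPKM in controls. Endothelial markers summed to 144, 136 and 140.4 FPKM at 1% and to 183, 142 and 127 FPKM in controls, and stellate cell markers to 106, 95.0 and 73.2 FPKM at 1% and to 103, 119 and 114 FPKM in controls. These 4 sums overlapped between the groups.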
